A study of Mus musculus with 18 samples.

Results

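The enzymes described here remove superoxide and peroxides from cells. The superoxide dismutases convert superoxide to hydrogen peroxide: Sod1 is the copper and zinc enzyme of the cytosol, Sod2 the manganese enzyme of mitochondria, and Sod3 is secreted and held at cell surfaces and in the matrix. Catalase (Cat) breaks down hydrogen peroxide in peroxisomes, which in liver are rich in peroxide-producing oxidases. The glutathione peroxidases reduce peroxides at the expense of glutathione: Gpx1 acts on hydrogen peroxide in cytosol and mitochondria, Gpx3 is secreted to plasma, Gpx4 reduces lipid hydroperoxides within membranes and so limits the lipid peroxidation of ferroptosis, and Gpx6 is a close relative of Gpx3 best known from the olfactory epithelium. Gpx1, Gpx3 and Gpx4 are selenoproteins, whereas the rodent Gpx6 has cysteine in place of selenocysteine.

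The set held 10 genes (Gpx1, Gpx3, Gpx4, Gpx6, Cat, Sod1, Sod2, Sod3, Prdx1 and Prdx6), each followed through every probe set paired with that symbol alone. This gave 18 probe sets for 8 genes, out of 34945 probe sets with a single symbol for 18193 genes. Sod1 had 5 such probe sets, Sod2 had 4, Cat, Gpx4 and Sod3 had 2 each, and Gpx1, Gpx3 and Gpx6 had 1 each. The 5 probe sets that name the thiol peroxidase Prdx1 also name other symbols, so Prdx1 has no value here, and Prdx6 was not analysed here. All 8 measured genes passed the filter on dim genes.

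Livers came from male C57BL/6J mice, obtained at 5 weeks of age and given 1 week on standard chow before 20 weeks on a test diet. The quercetin group ate a Western-style diet with 0.05% of the plant flavonol quercetin, the Western group ate that diet without it, and the control group ate the purified diet AIN93G. The Western-style diet drew 39.9% of its energy from fat, chiefly butter, and 34.0% from sucrose, and it held 0.15% cholesterol. Each group had 6 Affymetrix Mouse430_2 arrays labelled as the RNA of 1 mouse each, and mice were kept 3 to a cage, without a record of which mice shared a cage, so the p-values treat cage mates as independent.

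Levels are log2(intensity + 16) after quantile normalization, so a fold is a ratio of intensity + 16 and understates the change of dim genes. The medians of the arrays, as deposited, ran from 12.7 to 23.2. Control arrays 4 and 5 were nearly alike. Their log2 values differed with an SD of 0.0607 across 4504 bright probe sets, against 0.165 in the second most similar of 153 array pairs. Although labelled as separate mice, they were averaged to 1 sample, so n = 6 in the quercetin group, 6 in the Western group and 5 in the control group. All 5 measured hepatocyte markers, Alb and Ttr among them, were above the filter on dim genes. Precision is limited by how many arrays there are, and in bulk liver fewer cells of a type and less RNA per cell cannot be told apart.

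The Western-style diet was set against the control diet to see which of these enzymes differ in livers after long feeding on fat, sucrose and cholesterol. Transcripts of Gpx4, Gpx3 and Sod3 rose 1.44-fold, 1.51-fold and 1.55-fold, and Gpx6 was 2.23-fold lower. The factors were not tested against each other and depend on the added constant: the log2 differences of Gpx4, Gpx3 and Sod3 were 0.53, 0.71 and 0.69 with a constant of 1, and 0.52, 0.40 and 0.51 with a constant of 64, all called. The 4 others, Gpx1, Cat, Sod1 and Sod2, did not pass the test. Thus 3 of the 8 rose and 1 fell, where 8.65% of all 13645 genes tested were called at an adjusted p under 0.05 by limma (5.49% higher and 3.16% lower). The median log2 difference was −0.0019 over the 8 enzymes and −0.015 over all genes.

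Gpx6 levels ran from 4.81 to 5.27 with a median of 5.15 in the 6 Western mice, against 5.79, 6.40, 6.09, 6.84 (the averaged arrays) and 6.10 in the 5 control samples. Every Western mouse lay below every control sample. The log2 difference was −1.16 ± 0.17 (SE; adjusted p = 0.000589, limma; exact permutation p = 0.00216, two-sided, the smallest that 6 against 5 samples allow). Gpx6 is a dim gene in these livers, close to the filter at 4.56: its deposited intensity averaged 19.3 ± 4.80 in Western and 53.7 ± 22.0 in control livers (SD, n = 6 and 5). The size of the difference therefore depends on the added constant, with a log2 difference of −1.68 for a constant of 1 and −0.60 for a constant of 64, both called.

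Gpx4 levels ran from 11.67 to 11.90 with a median of 11.86 in Western mice, against 11.27, 11.23, 11.15, 11.39 and 11.40 in the control samples. The groups did not overlap. The log2 difference was 0.52 ± 0.093 (SE; adjusted p = 0.00224, limma), a 1.44-fold increase. The deposited intensity of this gene averaged 3735 ± 480 in Western and 2306 ± 209 in control livers (SD, n = 6 and 5). Its second probe set gave a log2 difference of 0.50 (adjusted p = 0.00694 over all 45037 probe sets, of which 3.01% were called). The 2 probe sets of Gpx4 thus gave nearly the same value, although the second carries the suffix of probe sets that may also read related sequences.

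Gpx3 levels ran from 6.69 to 7.15 with a median of 6.87 in Western mice, against 6.43, 6.11, 6.43, 6.22 and 6.28 in the control samples. Again no Western mouse reached down to a control sample. The increase was 1.51-fold (log2 difference 0.60 ± 0.12, SE; adjusted p = 0.0059, limma), on deposited intensities of 113.0 ± 27.1 in Western and 52.9 ± 7.07 in control livers (SD, n = 6 and 5).

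Sod3 levels ran from 7.54 to 8.19 with a median of 7.85 in Western mice, against 7.25, 7.40, 7.30, 7.18 and 7.05 in the control samples. The groups were apart here as well, as for the other 3 called enzymes. Of all genes tested 6.9% had groups that did not overlap, and since a called gene is the likelier to be among them, nothing is read from this count. The increase was 1.55-fold (log2 difference 0.63 ± 0.15, SE; adjusted p = 0.0121, limma). The second Sod3 probe set gave a log2 difference of 0.44, the same direction, and did not pass over all probe sets (adjusted p = 0.0757).

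**Figure D1:**
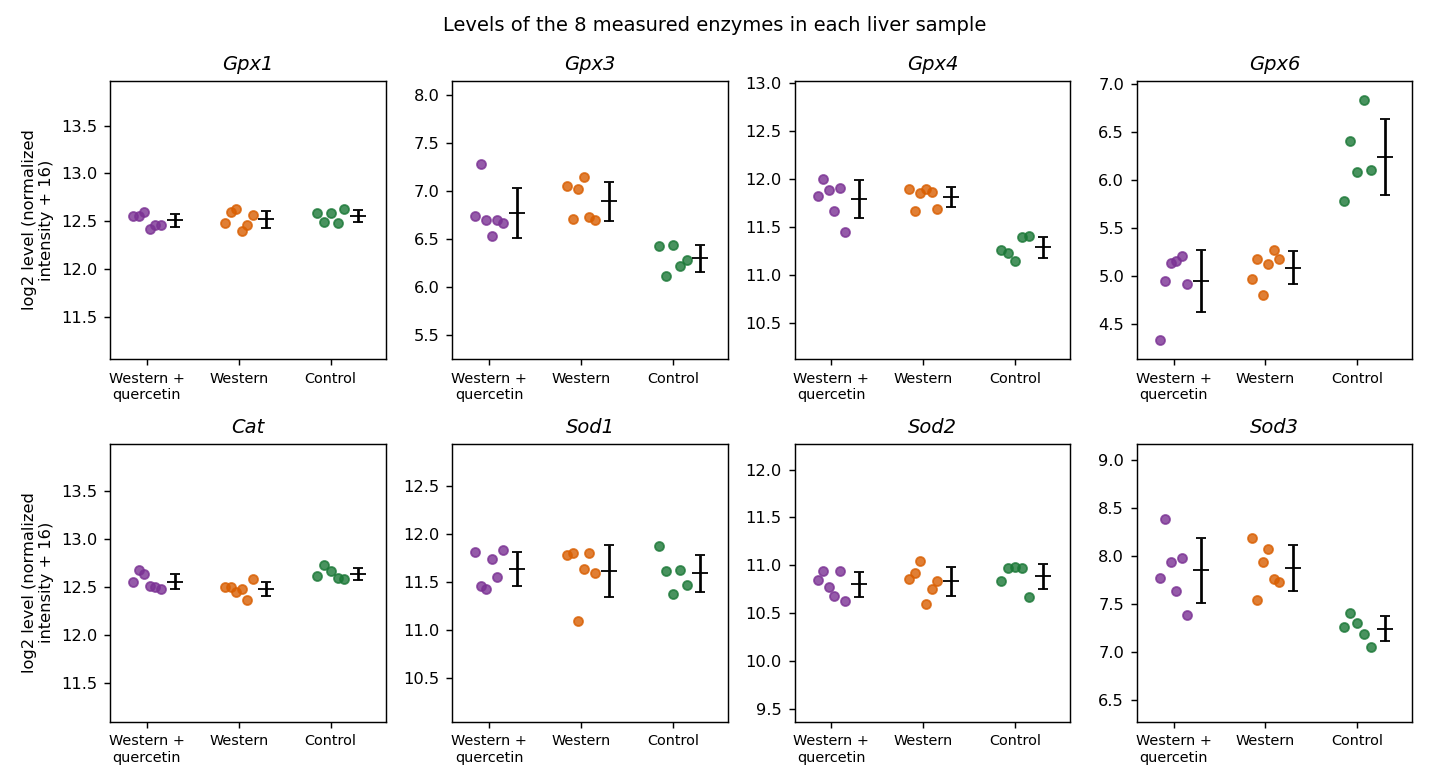
Log2 level (normalized intensity + 16) of the 8 measured enzymes in each liver sample, with 6 mice on the Western-style diet with quercetin, 6 on the Western-style diet and 5 control samples; points are samples, the bar beside them is the mean ± SD, and every panel spans the same height in log2 units. The Western samples lie wholly above the control samples for Gpx3, Gpx4 and Sod3, wholly below them for Gpx6, and overlap or touch them for the other enzymes.

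Gpx1, Sod2, catalase and Sod1 had smaller differences than the called enzymes. Gpx1 averaged 12.52 ± 0.088 in Western and 12.55 ± 0.065 in control livers (SD, n = 6 and 5), and the 95% interval of its log2 difference ran from −0.17 to 0.11. Sod2 had an interval from −0.24 to 0.14 on its brightest probe set. Its 3 other probe sets, with mean levels of 5.17, 10.31 and 8.28, gave differences of −0.23, 0.091 and −0.094 that did not pass. The intervals of Gpx1 and of the brightest Sod2 probe set leave out a difference as large as that of Gpx4.

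Catalase had the lowest unadjusted p of the 4 that did not pass. Its levels ran from 12.36 to 12.58 in Western mice and from 12.58 to 12.72 in control samples, and all 6 Western mice were below the control mean. The log2 difference was −0.16 (95% interval −0.29 to −0.025; unadjusted p = 0.0226, adjusted p = 0.137, limma). Its other probe set gave 0.015 with a wider 95% interval of −0.23 to 0.26, which holds −0.16. That probe set thus neither shows the decrease nor leaves it out.

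Sod1 was read differently by its 5 probe sets. The brightest, whose suffix marks probes shared with other transcripts, gave a log2 difference of 0.026 (adjusted p = 0.928, limma). The other bright probe set gave −0.22 (unadjusted p = 0.0301, adjusted p = 0.251 over all probe sets, limma), and the remaining 3 gave −0.17, −0.18 and −0.045. Those 3 were dim, with mean levels of 5.92, 5.98 and 4.21, against 11.61 and 11.21 for the bright ones. None of the 5 passed, and the value for Sod1 is uncertain to that extent.

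**Figure D2:**
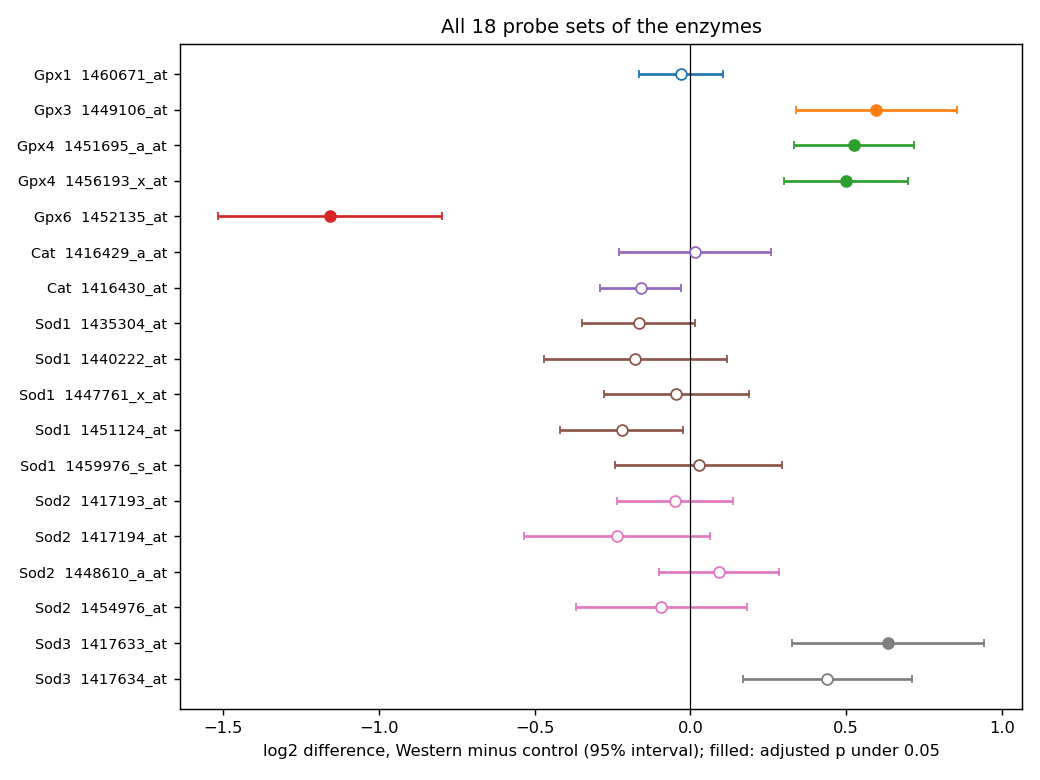
Log2 difference, Western minus control, of all 18 probe sets of the 8 enzymes with its 95% interval; filled points have an adjusted p under 0.05 over all probe sets. The 2 probe sets of Gpx4 give 0.52 and 0.50 and the 2 of Sod3 give 0.63 and 0.44, while those of Sod1 run from −0.22 to 0.026.

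The actin 3'/5' ratio, a measure of RNA integrity, also moved with diet: it averaged 0.55 ± 0.078 in quercetin, 0.54 ± 0.11 in Western and 0.69 ± 0.056 in control livers (log2; SD, n = 6, 6 and 5). With this ratio as a covariate Gpx6 kept its call (log2 difference −1.24, adjusted p = 0.00944), while the differences of Gpx4, Gpx3 and Sod3 became 0.43, 0.44 and 0.42 and no longer passed (adjusted p = 0.0597, 0.13 and 0.216, limma). Sod1 moved from 0.026 to 0.29 and did not pass (unadjusted p = 0.0273, adjusted p = 0.238, limma). Because the ratio moved with diet, diet and RNA integrity cannot be fully told apart in this fit.

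Quercetin within the Western-style diet was the comparison that bears on the supplement itself. None of the 8 enzymes differed between quercetin and Western livers, and 0 of 13645 genes were called by limma (0%), with 392 genes (2.87%) at an unadjusted p under 0.05 and 0 of the enzymes among them. Gpx6 ran from 4.33 to 5.21 with a median of 5.04 in quercetin mice, against 4.81 to 5.27 with a median of 5.15 in Western mice. Its log2 difference of −0.14 had a 95% interval from −0.48 to 0.20. Gpx4 had a difference of −0.023 (interval −0.21 to 0.16), Gpx3 of −0.12 (−0.37 to 0.12) and Sod3 of −0.023 (−0.32 to 0.27). For these 4 enzymes the intervals leave out a shift as large as the estimate between Western and control livers. That estimate has its own spread: for Gpx3 the interval of Western against control began at 0.34, within the reach of −0.37 here. For Sod3 it began at 0.32, against −0.32 here.

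Catalase was higher in all 6 quercetin mice than the Western mean, with a log2 difference of 0.080 (interval −0.049 to 0.21) that did not pass (unadjusted p = 0.208, limma; exact permutation p = 0.11, n = 6 each). Gpx1, Sod1 and Sod2 had differences of −0.014, 0.019 and −0.032.

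Quercetin livers were also set against control livers, a comparison that shares its control samples with the first and is no independent repeat of it. The same 4 genes passed: Gpx4 (log2 difference 0.50 ± 0.093, SE; adjusted p = 0.00432), Gpx3 (0.47 ± 0.12; adjusted p = 0.0307), Sod3 (0.61 ± 0.15; adjusted p = 0.0204) and Gpx6 (−1.30 ± 0.17; adjusted p = 0.000265, limma). Here 5.41% of all genes were called (3.43% higher and 1.98% lower), and 19.9% had an unadjusted p under 0.05. Of the 18 probe sets 3 were called over all probe sets, of which 1.92% were. They were the brightest of Gpx4 and of Sod3, and that of Gpx6. The only probe set of Gpx3 and the second ones of Gpx4 and Sod3 gave 0.47, 0.37 and 0.50. These did not pass over all probe sets (adjusted p = 0.0556, 0.0508 and 0.0536, limma). Gpx4 levels ran from 11.45 to 12.00 with a median of 11.86 in quercetin mice and stayed above all control samples. Sod3 ran from 7.38 to 8.39 with a median of 7.85, so that its lowest quercetin mouse overlapped the highest control sample at 7.40. The groups did not overlap for Gpx3, Gpx4 and Gpx6, nor for 4.65% of all genes, and again nothing is read from the count among called genes.

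With the actin ratio as a covariate Gpx6 kept its call here too (adjusted p = 0.00333), while Gpx4, Gpx3 and Sod3 had 0.42, 0.33 and 0.41 and no longer passed (adjusted p = 0.074, 0.274 and 0.235, limma). Sod1 moved from 0.045 to 0.29 and did not pass (unadjusted p = 0.0239, adjusted p = 0.243, limma). Gpx3 also lost its call with the replicate number as a block (adjusted p = 0.0521) and with only these 2 groups fitted (adjusted p = 0.0558, limma). The Gpx3 call lay close to the threshold. Its adjusted p was 0.0821, 0.0625 and 0.0629 without control 2, control 4-5 and control 6 (limma). It was 0.0513 and 0.0503 without quercetin mice 2 and 5. The Gpx3 difference itself ran from 0.37 to 0.52 with 1 sample left out. The Sod3 call was lost without control 6 (adjusted p = 0.0586, limma), which left 2 called enzymes. The Gpx4 difference was 0.69 with only the samples numbered 1 to 3, and 0.28 with only those numbered 4 to 6.

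**Figure D3:**
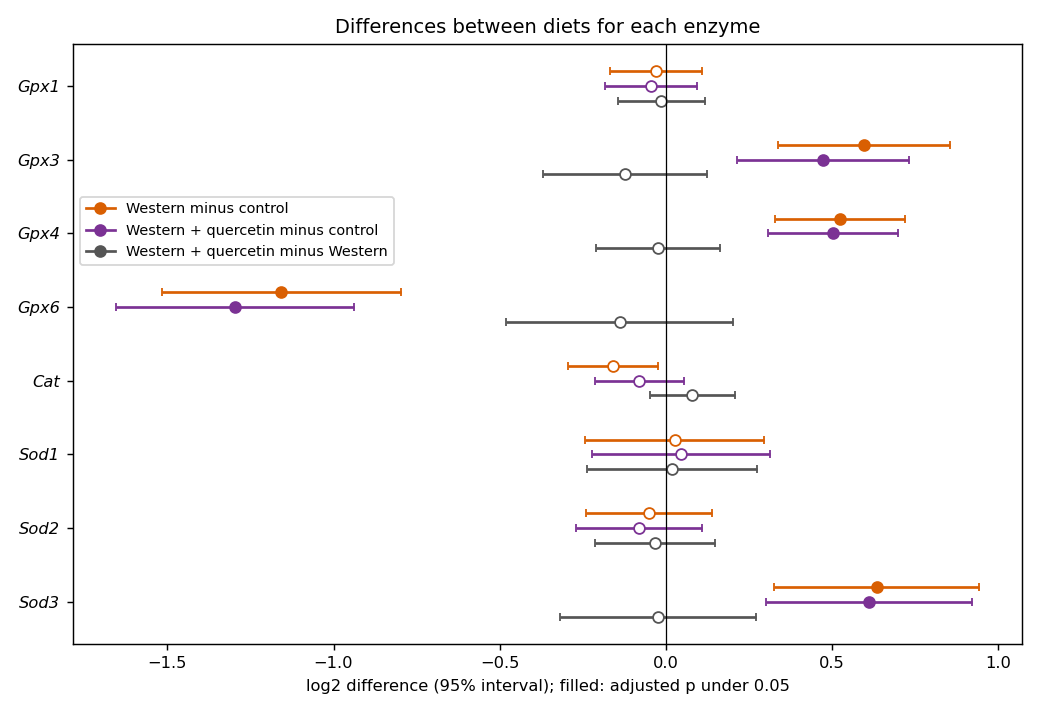
Log2 difference with its 95% interval for each enzyme in the 3 comparisons; filled points have an adjusted p under 0.05 over all genes tested. The Western and the quercetin group differ from the control group by 0.52 and 0.50 for Gpx4 and by −1.16 and −1.30 for Gpx6, and every interval between the quercetin and Western groups holds 0.

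Among the 12 mice on the Western-style diet with or without quercetin, Sod3 varied together with Gpx4 and with Gpx3. Levels were centred on their group mean, and 28 pairs of the 8 enzymes were compared. Gpx4 and Sod3 had r = 0.902 and rho = 0.916 (n = 12; permutation p = 2e-05 and 7e-05; adjusted over the 28 pairs 0.00056 and 0.00196). Gpx3 and Sod3 had r = 0.839 and rho = 0.839 (n = 12; permutation p = 0.00043 and 0.00119; adjusted 0.00602 and 0.0167). Without the 2 mice farthest from the median the coefficients were 0.849 and 0.695. Within the mice numbered 1 to 3 and 4 to 6, taken apart in case the cages of a group follow the numbers, which the labels do not say, they were 0.931 and 0.935 for Gpx4 with Sod3, and 0.918 and 0.631 for Gpx3 with Sod3.

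Gpx3 with Gpx4 had r = 0.637 and rho = 0.671 (n = 12; permutation p = 0.0262 and 0.0209), which did not pass (adjusted 0.183 and 0.143). These 2 were the only pairs of the 28 whose r passed, and no pair with Gpx6 did.

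**Figure D4:**
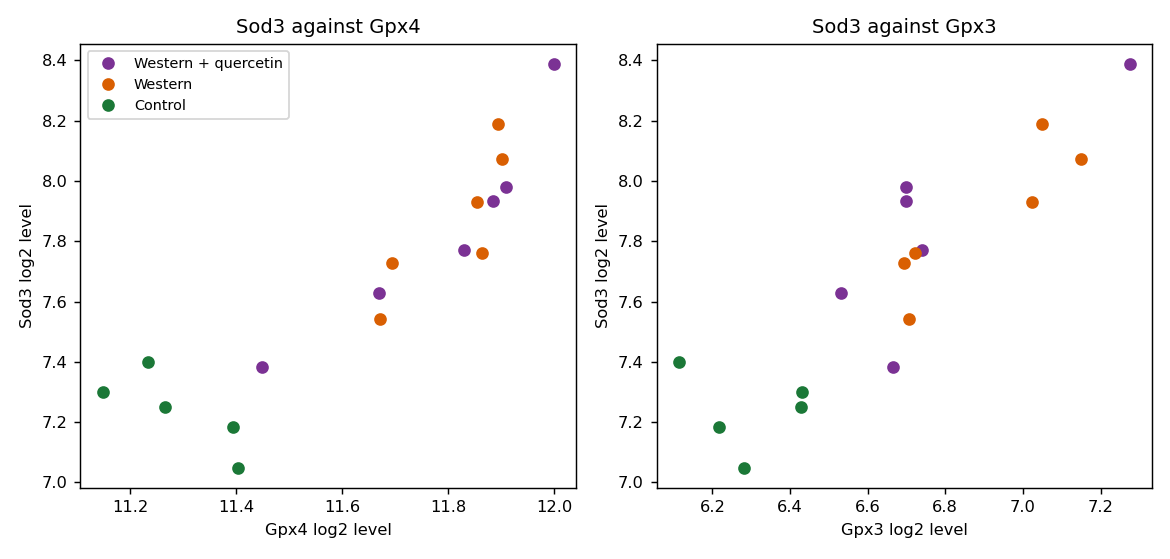
Log2 level of Sod3 against that of Gpx4 (left) and of Gpx3 (right) in 6 quercetin, 6 Western and 5 control samples. Within the 12 Western-fed mice Sod3 is higher where Gpx4 and Gpx3 are higher (r = 0.902 and 0.839 on levels centred on their group), and the control samples lie at the low end of all 3, with the lowest quercetin mouse for Sod3 (7.38) just below the highest control sample (7.40).

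Markers of macrophages and of collagen-making stellate cells and fibroblasts moved with the same diet. Of 8 macrophage markers 4 rose and 0 fell in Western against control livers. Over all genes tested 5.49% rose and 3.16% fell. Marco, among the 8, had a log2 difference of −0.83 that did not pass (adjusted p = 0.219, limma). The summed normalized intensity of the 8 ran from 3655 to 10310 in quercetin, 4442 to 7711 in Western and 3098 to 3634 in control livers. Of 8 stellate cell and fibroblast markers 6 rose and 0 fell, with sums of 2088 to 4249 in quercetin, 2348 to 3716 in Western and 1516 to 1660 in control livers. All 16 markers were above the filter on dim genes. Of the 6 endothelial markers 1 rose, Lyve1, and of the 5 hepatocyte markers 1 fell, Tat. The endothelial markers had a positive difference in 5 of 6. Their sums ran from 957.8 to 1186 in quercetin, 915.9 to 1192 in Western and 705.8 to 944.9 in control livers. None of the 4 bile duct markers or 5 neutrophil markers passed. Between quercetin and control livers 3 macrophage and 6 stellate cell and fibroblast markers rose, where 3.43% of all genes tested did. Between quercetin and Western livers 0 of any list passed.

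Over the 12 Western-fed mice, the mean log2 levels of the macrophage list and the stellate cell and fibroblast list were set against each enzyme. This gave 16 relations in all, and the other marker lists were not set against the enzymes. Sod3 followed the stellate cell and fibroblast markers with r = 0.932 and rho = 0.86 (n = 12; permutation p = 3e-05 and 0.00056; adjusted 0.0004 and 0.00692), and r was 0.85 without the 2 farthest mice and 0.923 and 0.919 within the numbers 1 to 3 and 4 to 6. Gpx4 followed them with r = 0.892 and rho = 0.692 (permutation p = 5e-05 and 0.0156; adjusted 0.0004 and 0.0499; n = 12), with 0.859 without the 2 farthest and 0.923 and 0.948 within the number sets. Gpx3 followed them with r = 0.838 and rho = 0.832 (permutation p = 0.00033 and 0.0015; adjusted 0.00132 and 0.00692; n = 12), with 0.735 without the 2 farthest and 0.909 and 0.61 within the number sets.

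With the macrophage markers, Sod3 had r = 0.878 and rho = 0.818 (n = 12; permutation p = 0.00017 and 0.00173; adjusted 0.000907 and 0.00692), 0.704 without the 2 farthest and 0.909 and 0.787 within the number sets. Gpx4 had r = 0.837 and rho = 0.832 (n = 12; permutation p = 0.00105 and 0.00129; adjusted 0.00336 and 0.00692), 0.732 without the 2 farthest and 0.826 and 0.942 within the number sets. Gpx3 had r = 0.736 and rho = 0.615 (n = 12, permutation p = 0.00866 and 0.0379, adjusted 0.0231 and 0.101). Its r was 0.44 without the 2 farthest, and 0.984 and 0.139 within the number sets. That relation was thus weaker without those mice and uneven between the number sets. None of Gpx1, Gpx6, Cat, Sod1 and Sod2 passed with either list. Gpx6 had r = 0.0132 and rho = −0.00699 with macrophage markers (permutation p = 0.962 and 0.991) and r = −0.313 and rho = −0.462 with stellate cell and fibroblast markers (permutation p = 0.326 and 0.135; n = 12). The part of these cells in the rise of the 3 enzymes was not tested.

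Adipocyte and kidney tubule markers, types in which Gpx3 is abundant, were dim, with 1 of 3 and 3 of 4 above the filter and none of these passing. The sums of 3 adipocyte markers ran from 8.07 to 28.0 in quercetin, 5.97 to 18.5 in Western and 7.57 to 26.5 in control livers, and those of 4 kidney markers from 35.2 to 58.6 in quercetin, 42.7 to 77.8 in Western and 49.2 to 76.8 in control livers. Of the 6 erythroid markers, whose cells are rich in peroxide-removing enzymes, 3 were measured, and the 2 above the filter did not pass.

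The genes closest in pattern over the 17 samples were looked up for the 3 enzymes with the lowest p. They were chosen for the highest r, so no p is given, and part of each r over all samples is the gap between diets. For Gpx4 they were Ccl6, a chemokine of myeloid cells (r = 0.974 over 17 samples and 0.956 over the 12 Western-fed mice), Lpl, lipoprotein lipase (0.957 and 0.874), and Idh2, the mitochondrial isocitrate dehydrogenase that makes NADPH (0.957 and 0.937). For Gpx3 they were Gpr35, a receptor gene (0.948 and 0.853), Col1a2, a chain of type I collagen (0.933 and 0.936), and Sox4, a transcription factor (0.924 and 0.859). For Gpx6 they were Ces1c, a secreted carboxylesterase (0.944 and 0.723), Apeh, an acylpeptide hydrolase (0.922 and 0.569), and Ttc36 (0.892 and 0.483). The likeness of the last 3 to Gpx6 was thus lower among the mice that shared the Western-style diet.

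Sequence before the transcription start is shown for the 3 enzymes with the lowest p and for Sod1, as the comparison that did not pass. Each line holds the 250 bases upstream of an annotated start in RefSeq, build GRCm38.p6, read 5′ to 3′. For Gpx6 it is chr13:21311953-21312202, for Gpx3 chr11:54902604-54902853, for Gpx4 the second of 4 starts in the table, chr10:80053315-80053564, and for Sod1 chr16:90220512-90220761, all on the plus strand. Capitals mark any match, on either strand, to the core of the antioxidant response element bound by NRF2 (TGACNNNGC), to the GC box (GGGCGG) or to the E-box (CACGTG).
Gpx6: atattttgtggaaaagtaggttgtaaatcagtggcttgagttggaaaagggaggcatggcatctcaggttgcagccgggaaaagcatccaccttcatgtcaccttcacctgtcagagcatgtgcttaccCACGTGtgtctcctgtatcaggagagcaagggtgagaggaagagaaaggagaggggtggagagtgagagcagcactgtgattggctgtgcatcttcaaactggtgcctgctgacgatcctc
Gpx3: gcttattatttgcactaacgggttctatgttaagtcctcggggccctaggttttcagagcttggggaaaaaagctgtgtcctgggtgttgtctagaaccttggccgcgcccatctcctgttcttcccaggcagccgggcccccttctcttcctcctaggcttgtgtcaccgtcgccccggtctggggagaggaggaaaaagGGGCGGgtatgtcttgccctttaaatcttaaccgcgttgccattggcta
Gpx4: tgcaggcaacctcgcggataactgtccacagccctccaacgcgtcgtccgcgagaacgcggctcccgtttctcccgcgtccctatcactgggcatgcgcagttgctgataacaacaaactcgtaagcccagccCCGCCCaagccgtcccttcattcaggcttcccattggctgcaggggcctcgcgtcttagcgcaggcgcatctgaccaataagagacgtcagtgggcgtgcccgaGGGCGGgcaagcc
Sod1: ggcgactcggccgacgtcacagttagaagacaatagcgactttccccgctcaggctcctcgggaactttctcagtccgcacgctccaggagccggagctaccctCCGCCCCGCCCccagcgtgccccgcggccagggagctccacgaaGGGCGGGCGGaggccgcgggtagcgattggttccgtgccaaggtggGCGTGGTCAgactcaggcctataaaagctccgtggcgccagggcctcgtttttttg

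In these windows Gpx6 has 1 E-box, Gpx3 has 1 GC box, Gpx4 has 2 GC boxes, and Sod1 has 4 GC boxes, which overlap in pairs, and 1 antioxidant response element core that begins 56 bases before the start. None of the 4 Gpx4 windows, nor those of Gpx1, Gpx3, Gpx6, Cat and Sod2, holds that core. The window of Prdx1, which has no value here, holds 1 that begins 133 bases before the start. The core is held by 10.2% of all 32851 windows of this length in RefSeq's table, where 32.7% hold a GC box and 6.02% an E-box. The letters are a description of these windows only, and Sod3 is named here without one.

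The partner genes of these enzymes were then counted by role in Western against control livers. In the list of thioredoxin and glutathione partners 2 of 23 measured genes rose, 1 fell and 20 did not pass, with a median log2 difference of 0.073. Over all genes tested 5.49% rose and 3.16% fell, and with lists this short the counts of this and the following lists are given as descriptions. Gpx7, a peroxidase of the endoplasmic reticulum, rose 1.56-fold (5.97 in quercetin, 5.93 in Western and 5.29 in control livers, mean levels; adjusted p = 0.00634). Txn1, the cytosolic thioredoxin, rose 1.21-fold (adjusted p = 0.0227). Prdx4, a peroxiredoxin of the secretory pathway, was 1.23-fold lower (adjusted p = 0.0236), and Glrx2, a mitochondrial glutaredoxin, did not pass (log2 difference −0.22, adjusted p = 0.0588, limma).

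On the side of oxidant production, 2 of 7 measured NADPH oxidase subunits rose, 0 fell and 5 did not pass, with a median of 0.42. Cybb, the catalytic subunit of the phagocyte enzyme, rose 1.93-fold (7.50 in quercetin, 7.59 in Western and 6.64 in control livers; adjusted p = 0.00406). Cyba, its membrane partner, rose 1.89-fold (adjusted p = 0.017). Ncf4, a cytosolic subunit, and Nox4, a constitutively active oxidase, had log2 differences of 0.42 and −0.30 that did not pass (adjusted p = 0.0951 and 0.139, limma).

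Of 17 measured peroxide-producing oxidases 2 rose, 3 fell and 12 did not pass, with a median of −0.0059. Pipox, a peroxisomal oxidase of pipecolate and sarcosine, was 1.53-fold lower (10.05 in quercetin, 9.95 in Western and 10.56 in control livers; adjusted p = 0.000764). Hao2, a peroxisomal hydroxyacid oxidase, was 2.26-fold lower (adjusted p = 0.0129). Ddo, the aspartate oxidase of peroxisomes, rose 1.50-fold (adjusted p = 0.0102), and Aox1, an aldehyde oxidase, rose 1.36-fold (adjusted p = 0.00505). The fifth was Maob, a monoamine oxidase, 1.22-fold lower (adjusted p = 0.0485, limma), which is named after its value was seen.

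None of 15 measured peroxisome biogenesis genes passed, with a median of −0.069. The lowest p was that of Pex11a, a factor of peroxisome division (log2 difference 0.44, adjusted p = 0.121), followed by Pex6, an import ATPase (−0.14, adjusted p = 0.228, limma). Of 20 selenoprotein and selenium handling genes 2 rose, 1 fell and 17 did not pass, with a median of −0.040. Selenof and Selenow, small selenoproteins, rose 1.18-fold and 1.24-fold (adjusted p = 0.0206 and 0.0399), and Scly, the selenocysteine lyase that recovers selenium, was 1.30-fold lower (adjusted p = 0.0186, limma).

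None of these partner genes passed between quercetin and Western livers. The genes with the lowest p in their lists were Sesn2, a stress-induced sestrin (log2 difference 0.22), Duox1, a dual oxidase (0.13), Acox2, the branched-chain acyl-CoA oxidase (0.15), Pex14, a docking factor of peroxisomal import (−0.17), and Secisbp2, which binds the selenocysteine insertion element (−0.21). Each had an adjusted p of 1 after rounding (limma).

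**Figure D5:**
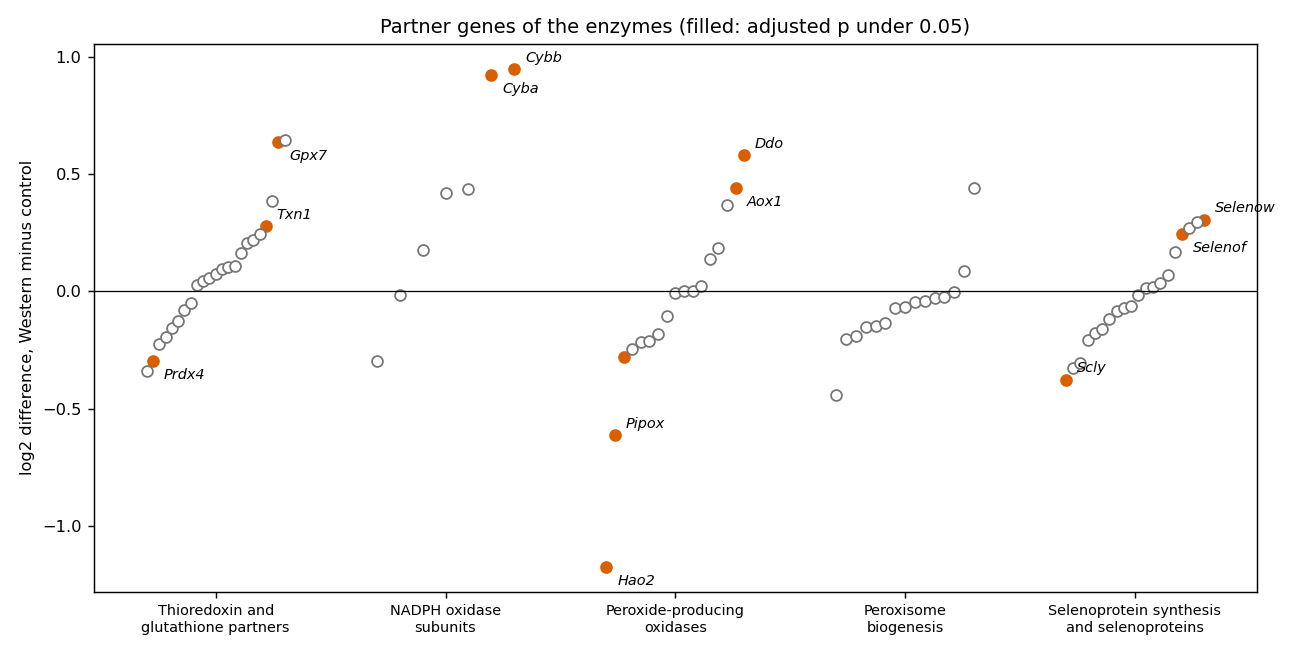
Log2 difference, Western minus control, of each measured partner gene in 5 lists, sorted within its list; filled points have an adjusted p under 0.05 over all genes tested, and up to 4 such genes a list are named. Cybb and Cyba are the highest at 0.95 and 0.92, Hao2 is the lowest at −1.17, and no peroxisome biogenesis gene is filled.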

How the data were processed

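Liver RNA was measured on 18 arrays, labelled as 1 per mouse. Control arrays 4 and 5 go against that label in being nearly identical, and count as 1 sample. The authors deposited 1 linear intensity per probe set, for 45101 probe sets. How they derived it is not given in the sources used here. Here the 45037 probe sets that are not controls were converted to log2(intensity + 16) and quantile normalized, and those 2 arrays were averaged. Of these probe sets 34945 were paired with 1 symbol, 932 with several and 9160 with none, by the platform annotation. The brightest probe set stood for a gene, and the dimmest genes, whose average level fell below the 25th percentile, were dropped, which left 13645.

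The 17 samples entered 1 fit of the 3 group means with limma 3.58.1 in R 4.3.3. Tests were two-sided, with Benjamini-Hochberg adjustment over all genes tested, or over all 45037 probe sets for single probe sets. Permutation tests of correlations used 100000 resamples. The fit was tested on simulated data with independent normal noise for each gene and no cage or number structure. That test does not bear on sharing between samples. Figures were drawn with matplotlib 3.10.9.

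The members and lists were chosen with earlier results of these data known. Named were all members, up to 4 genes a list with the lowest p for Western against control and up to 2 for quercetin against Western, and the 3 genes most correlated with each of 3 members. The text gives a part of these.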

Additional observations from a re-analysis of the deposited data

Results flagged for a closer look

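In 54 groups of samples (18 probe sets in 3 diet groups), 3 held a mouse far from the others of its group by Dixon's test, and chance alone marks about 1 group in 20. Gpx3 stood at 7.28 in quercetin mouse 2, where the next highest mouse of that group had 6.74. Gpx6 stood at 4.33 in quercetin mouse 1, where the next lowest had 4.92. Sod1, on its brightest probe set, stood at 11.09 in Western mouse 3, where the next lowest had 11.59. Without quercetin mouse 2 the Gpx3 difference between quercetin and control livers was 0.37 (log2; adjusted p = 0.0513, limma).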

How the results depend on the processing

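In Western against control livers the 4 called enzymes kept their direction under every alternative run. Of 336 differences of an enzyme under another setting 296 kept direction and side of the threshold, as did 245 of 272 with 1 sample left out. With only the samples numbered 1 to 3, Gpx4 alone passed for Western against control (1 enzyme, 0 probe sets), and 2 enzymes and 1 probe set passed for quercetin against control. With only those numbered 4 to 6 these counts were 1 and 0, and 1 and 0, with Gpx6 the enzyme. The Western against control differences stayed near those of all samples: Gpx3 0.60, Sod3 0.57 and Gpx6 −1.11 in the numbers 1 to 3. In the numbers 4 to 6 they were Gpx3 0.61, Sod3 0.74 and Gpx4 0.42. For quercetin against control Gpx4 had 0.69 in the numbers 1 to 3 and 0.28 in the numbers 4 to 6 (adjusted p = 0.0187 and 0.359, limma). The numbers 4 to 6 minus 1 to 3 gave −0.41 for it (unadjusted p = 0.0287, adjusted p = 0.488, limma). With the actin ratio as a covariate the counts of enzymes and probe sets were 1 and 1, and 1 and 1. The share of all genes called is not given for the actin fit or the number sets. Nothing particular to the enzymes is therefore read from these counts. The cause of the lower counts in the actin fit and in the number sets was not tested. Probe sets called for quercetin against control numbered 3 in the reported fit. They were 2 with a constant of 1, with the replicate number as a block or with only the 2 groups compared, 4 with a constant of 64, 6 on values as deposited, 5 with array medians centred, 6 with all 18 arrays apart, 5 with a block for the numbers 1 to 3 and 4 to 6, and 6 with dim probe sets left out. Values as deposited put the median of all genes at 0.22 for Western against control, where quantile normalization put it at −0.015, and relative to it Gpx3, Gpx4, Sod3 and Gpx6 differed by 0.67, 0.47, 0.70 and −1.16.

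The signs that turned were all of differences that did not pass. For Western against control they were Gpx1 0.064 and Sod2 0.14 on values as deposited, Gpx1 0.018, Sod1 −0.063 and Sod2 0.014 in the numbers 1 to 3, Sod1 −0.12 on the mean of its probe sets and Sod1 −0.22 without probe sets of shared sequence. For quercetin against Western they were Sod1 −0.0021 with array medians centred, Gpx4 0.098 and Sod3 0.14 in the numbers 1 to 3, Sod2 0.024 in the numbers 4 to 6, and Sod2 0.043 and Sod3 0.020 on the mean of probe sets. For quercetin against control they were Gpx1 0.045, Cat 0.0047 and Sod2 0.11 on values as deposited, Gpx1 0.016 and Sod1 −0.057 in the numbers 1 to 3, Cat 0.044 and Sod1 −0.11 on the mean of probe sets, and Sod1 −0.14 without probe sets of shared sequence.

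With 1 sample left out, 4 enzymes and 4 to 5 probe sets passed for Western against control, and 2 to 4 enzymes and 2 to 5 probe sets for quercetin against control. Sod1 ran from −0.028 to 0.13 for Western against control and from −0.0098 to 0.12 for quercetin against control. For quercetin against Western Gpx1 ran from −0.039 to 0.0066, Gpx4 from −0.065 to 0.045, Sod1 from −0.086 to 0.061, Sod2 from −0.080 to 0.0094 and Sod3 from −0.13 to 0.070.

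Samples of the same number correlated at −0.26 to 0.32 after centring (13 of 16 pairs over 0.1), and 11 of 16 correlated best with their own number. Since not every pair was over 0.1 and no label says what the numbers share, they were not taken as pairs, although the data hint at some sharing. The p-values of the reported fit take no account of such sharing. With the replicate number as a block, 4 enzymes passed for Western against control and 3 for quercetin against control, where Gpx3 had 0.50 (adjusted p = 0.0521, limma).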
